A study of Mus musculus with 8 samples.

Results

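This report describes 10 genes of the liver X receptor (LXR) pathway and of cholesterol efflux in mouse macrophages after knockdown of the long noncoding RNA MAARS. They are the receptor genes Nr1h3, Nr1h2 and Rxra, the transporter genes Abca1 and Abcg1, the apolipoprotein genes Apoe and Apoc1, and the LXR target genes Mylip, Lpcat3 and Pltp. The genes were chosen by name from the pathway, with earlier results of these data known. All 10 were found among the 49315 genes of the deposited count table and among the 13051 genes that passed the filter on low counts. Macrophages were grown from C57BL/6 mouse bone marrow with macrophage colony-stimulating factor, and both groups were transfected by lipofection with 25 nM of a gapmeR, an antisense oligonucleotide that directs cleavage of the RNA it pairs with. The control group of 4 libraries, numbered 2, 5, 6 and 7, received a negative control gapmeR, and the MAARS group of 4 libraries, numbered 9, 11, 13 and 15, received a gapmeR against MAARS. Both groups were labelled with the same medium, with 10 ng per ml of that factor, 10% fetal bovine serum and 1% penicillin-streptomycin. Apart from this serum, no loading with lipoprotein or cholesterol and no LXR agonist is named in the labels for these cells. The effect of the serum on these genes was not tested. The labels do not say whether the libraries of a group came from separate animals, so p-values measure the spread between these libraries, which may be technical. A gapmeR acts on its target RNA in every transfected cell, and 1 gapmeR sequence per group cannot separate the loss of MAARS from other effects of that sequence.

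LXRs are nuclear receptors that bind oxysterols, which are oxidized forms of cholesterol, and act on DNA as a pair with a retinoid X receptor. When cholesterol accumulates, the pair switches on genes that move cholesterol out of the macrophage and onto lipoprotein particles. In the foam cells of atherosclerotic lesions this route opposes the storage of cholesterol esters. ABCA1 passes cholesterol and phospholipid to lipid-poor apolipoprotein A-I, whereas ABCG1 passes cholesterol to mature HDL particles. The comparison of both gapmeRs asks how the RNA of these genes stood after the knockdown. In macrophages loaded with modified lipoprotein, the paper reports that MAARS knockdown raised cholesterol efflux to HDL, apolipoprotein A-I and serum. Efflux was not measured in the libraries described here, and its relation to these RNA levels was not tested.

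The DNA element through which an LXR and its partner act is a direct repeat of AGGTCA with a spacer of 4 bases, and the Abca1 promoter is known to carry an element of this kind close to its start site. It is shown because Abca1 was the member with the largest rise. The 250 bases upstream of an annotated start of Abca1, read from RefSeq on GRCm38.p6 at chr4:53159896-53160145 on the minus strand and printed 5′ to 3′ along the gene, hold the closest match in capitals, at positions -67 to -52 from the start:
Abca1: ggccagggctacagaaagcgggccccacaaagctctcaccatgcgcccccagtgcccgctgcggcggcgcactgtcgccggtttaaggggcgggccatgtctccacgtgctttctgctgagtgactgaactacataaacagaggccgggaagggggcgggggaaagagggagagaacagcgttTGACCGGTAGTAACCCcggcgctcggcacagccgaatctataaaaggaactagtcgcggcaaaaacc

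The repeat was searched on both strands in windows of 250 bases before to 50 bases after each RefSeq start, counting mismatches over its 12 fixed bases. RefSeq windows were at hand for 8 of the 10 genes, 12 windows in all, and not for Abcg1 and Apoc1. With at most 2 mismatches, 0 of the 12 windows of the 8 genes had a match, against 3.02% of the 32851 windows of all genes. So few windows cannot show a share below that of all genes, and elements outside the windows were not searched. With at most 3 mismatches, a limit chosen after the first result was seen, Abca1 and Rxra had one, which is 16.7% of the 12 windows against 21.9% of all windows. The 2 matches are printed along the repeat, with the bases that equal it in capitals. The Abca1 match lies at chr4:53159947-53159962 on the strand opposite to the gene, and the Rxra match at chr2:27709234-27709249 on the strand of the gene:
Abca1: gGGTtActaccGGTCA
Rxra: gtGgCAggaaAGGTCA
A match describes letters in the window and shows no binding, and at this limit the share of windows that hold one is no lower among all genes than among these.

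MAARS itself, annotated as Gm14461 (ENSMUSG00000054510), was checked in every library before the pathway was examined. It stood at 12.2, 15.1, 12.98 and 12.2 counts per 1000000 counts of the library (CPM, scaled by edgeR's TMM factors) in control libraries 2, 5, 6 and 7. In MAARS libraries 9, 11, 13 and 15 it stood at 7.71, 6.41, 7.31 and 5.85 CPM. All 4 MAARS libraries were below all 4 controls, and the log2 fold change was -0.95 with a standard error (SE) of 0.112 and an adjusted p of 5.8e-05. MAARS thus fell by 48.1%, a smaller fall than the paper states for its gapmeRs in these macrophages, by a measure that may differ. Each adjusted p of a gene comes from the quasi-likelihood test of edgeR, adjusted by the Benjamini-Hochberg method over the 13051 genes, and a gene was called at an adjusted p under 0.05.

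Total counts were 19287279 to 20567123 in the control libraries and 20839671 to 24541205 in the MAARS libraries, so that every MAARS library was deeper than every control. Over all 13051 genes tested, 45.4% were called, 21.3% higher and 24.0% lower, and in 42.1% the groups did not overlap. The macrophage markers summed to 14062 to 17287 CPM in the controls and 17055 to 20216 CPM in the MAARS libraries, and 7 of these 8 markers were called, 4 higher and 3 lower. Neutrophil markers summed to 102 to 302 and 107 to 169 CPM, and stromal markers to 465 to 1062 and 730 to 1252 CPM, with 0 genes of either list called. Osteoclast markers summed to 345 to 359 CPM in the controls and 466 to 502 CPM in the MAARS libraries. Most of this sum was Atp6v0d2, called higher, at 332 to 349 and 455 to 491 CPM. Ctsk, at 9.43 to 12.6 and 9.59 to 10.6 CPM, was not called. Dcstamp and Ocstamp reached at most 0.915 CPM, and Calcr was at 0 in all libraries. B cell markers and dendritic cell markers reached at most 2.60 CPM in any library, and T and NK cell markers (Cd3g and Gzma at 0) and erythroid markers at most 0.650 CPM. The part of these other cells in the values that follow was not tested. In RNA from whole cultures, fewer cells that express a gene and less of its RNA per cell cannot be told apart.

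Among the 10 genes, Abca1 and Lpcat3 rose, Abcg1 and Nr1h3 fell, and the other 6 did not pass the test. In 3 genes, Abca1, Abcg1 and Nr1h3, the groups did not overlap. A share of 4 called of 10 is close to the 45.4% called among all genes, and 3 of 10 is below the 42.1% of all genes whose groups did not overlap, so the number of changed genes does not set the pathway apart. The median log2 fold change of the 10 was 0.10, against 0.01 over all genes tested. None of the 10 reached a log2 fold change of 1.5, the size named in the paper's methods, which 2.20% of genes did while passing the test. For the gapmeR-transfected macrophages the paper's results name a cut on the p-value only, with no fold change. The genes of the pathway moved in different directions: of the 2 main efflux transporters, Abca1 was higher and Abcg1 lower.

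**Figure D1:**
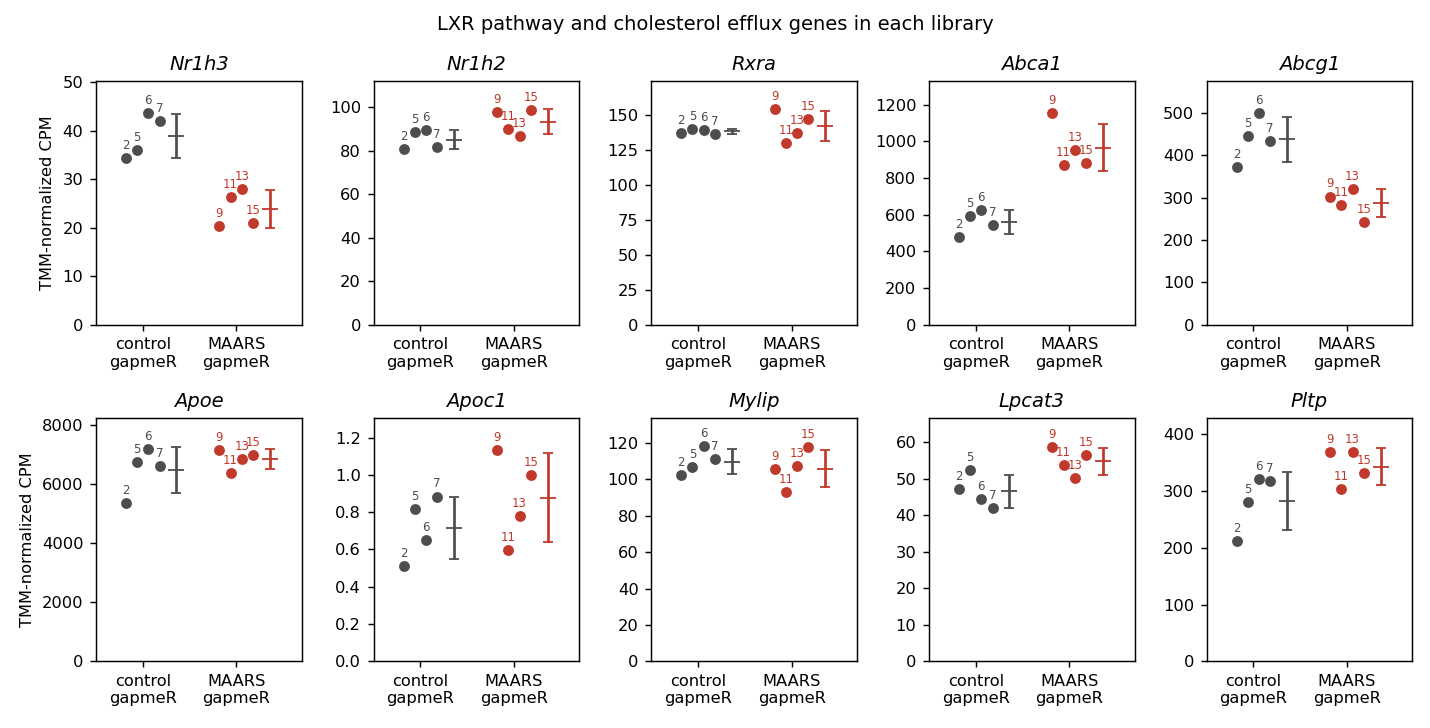
TMM-normalized CPM (y axis, from 0) of the 10 genes in the 4 control gapmeR libraries (grey) and the 4 MAARS gapmeR libraries (red), each point 1 library labelled with its replicate number and each bar the mean with its SD. Abca1 lies higher and Abcg1 and Nr1h3 lower in all 4 MAARS libraries than in any control, while the points of the other 7 genes overlap.

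The receptors came out unequal. Nr1h3 encodes LXR alpha, the form best known from macrophages, liver and fat tissue. Nr1h3 (ENSMUSG00000002108, chr2:91184061-91202834, minus strand, GRCm38) was at 34.3, 36.0, 43.7 and 41.9 CPM in control libraries 2, 5, 6 and 7. In MAARS libraries 9, 11, 13 and 15 it was at 20.3, 26.4, 27.9 and 20.9 CPM. The highest MAARS library was below the lowest control, and libraries 9 and 15 lay below libraries 11 and 13. Nr1h3 thus fell by 38.7%, a log2 fold change of -0.71 (SE 0.114, 95% interval -0.96 to -0.46, adjusted p = 0.000471). Of its exon length, 1.35% is shared with Gm13783 on the same strand.

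Nr1h2 encodes LXR beta, the form found in most tissues. Nr1h2 (ENSMUSG00000060601, chr7:44549616-44553951, minus strand) measured 80.8, 88.5, 89.5 and 81.9 CPM in the controls and 97.8, 90.0, 86.9 and 98.7 CPM in the MAARS libraries. MAARS library 13 lay within the control range and the other 3 above it. The log2 fold change of 0.13 (SE 0.0564, 95% interval 0.01 to 0.26) had an adjusted p of 0.0758 and did not pass the test; the call was made under upper-quartile scaling, at 0.20 and adjusted p = 0.0123, and without MAARS library 13, at 0.16 and adjusted p = 0.0465.

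Rxra encodes RXR alpha, the partner with which both LXRs bind DNA. Rxra (ENSMUSG00000015846, chr2:27676440-27762957, plus strand) was at 137, 140, 139 and 137 CPM in the controls, the smallest spread of the 10 genes relative to the mean (coefficient of variation 1.24%). The MAARS libraries had 154, 130, 137 and 147 CPM, on both sides of the controls. Its log2 fold change was 0.04 (SE 0.0542, 95% interval -0.08 to 0.16, adjusted p = 0.587), and was -0.01 when MAARS library 9 was left out.

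Because Nr1h3 and Nr1h2 lay in the same libraries, their ratio needs no scaling between libraries. In control libraries 2, 5, 6 and 7 there were 0.425, 0.406, 0.489 and 0.512 Nr1h3 counts per Nr1h2 count. In MAARS libraries 9, 11, 13 and 15 there were 0.207, 0.294, 0.321 and 0.212. All 4 MAARS ratios were below all 4 control ratios, and the mean log2 ratio differed by -0.85, from -1.13 ± 0.16 to -1.98 ± 0.32 (SD, n = 4 each). A two-sided exact permutation test gave p = 0.0286, the smallest that 4 against 4 allows, and 0.0429 after Benjamini-Hochberg adjustment over the 3 ratios computed. Since Nr1h3 alone had every MAARS library below every control, that p adds little to the result of this single gene. Per exon length, Nr1h2 was at 1.65 times the level of Nr1h3 in the controls and at 2.96 times in the MAARS group (geometric means).

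The transporters differed in direction. Abca1 encodes the transporter that lipidates apolipoprotein A-I, the step with which a nascent HDL particle begins. Abca1 (ENSMUSG00000015243, chr4:53030787-53159895, minus strand) stood at 478, 592, 623 and 546 CPM in control libraries 2, 5, 6 and 7. The MAARS libraries 9, 11, 13 and 15 held 1152, 873, 955 and 884 CPM. Every MAARS library was above every control, with library 9 the highest and control library 2 the lowest. Abca1 thus rose by 72.6%, a log2 fold change of 0.79 (SE 0.0996, 95% interval 0.57 to 1.01, adjusted p = 9.1e-05). Without MAARS library 9 it was 0.69 (adjusted p = 0.000148), and after thinning every library to the smallest total it was 0.79 (adjusted p = 8.9e-05). Among the 13051 genes, 1225 (9.39%) had a larger absolute log2 fold change.

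Abcg1 encodes the transporter that loads cholesterol onto HDL already formed. Abcg1 (ENSMUSG00000024030, chr17:31057675-31117988, plus strand) was measured at 372, 446, 501 and 434 CPM in the controls. Its MAARS values were 303, 283, 320 and 244 CPM, all below the lowest control. Abcg1 fell by 34.4%, a log2 fold change of -0.61 (SE 0.0963, 95% interval -0.82 to -0.40, adjusted p = 0.000416), and of -0.61 after thinning (adjusted p = 0.000397).

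Across the controls Abca1 and Abcg1 kept a nearly fixed ratio although their levels varied. Control libraries 2, 5, 6 and 7 had 1.28, 1.33, 1.24 and 1.26 Abca1 counts per Abcg1 count. MAARS libraries 9, 11, 13 and 15 had 3.80, 3.08, 2.99 and 3.63. The lowest MAARS ratio was above the highest control ratio. The mean log2 ratio rose from 0.35 ± 0.042 to 1.75 ± 0.17 (SD, n = 4 each), a difference of 1.39 or 2.63-fold. The two-sided exact permutation test gave p = 0.0286 (0.0429 adjusted over the 3 ratios). Since every MAARS library was above all controls for Abca1 and below them for Abcg1, that p was fixed in advance. It adds no evidence to the results of the single genes. Per exon length, the level of Abcg1 was 1.11 times that of Abca1 in the controls, and that of Abca1 was 2.36 times that of Abcg1 in the MAARS group.

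**Figure D2:**
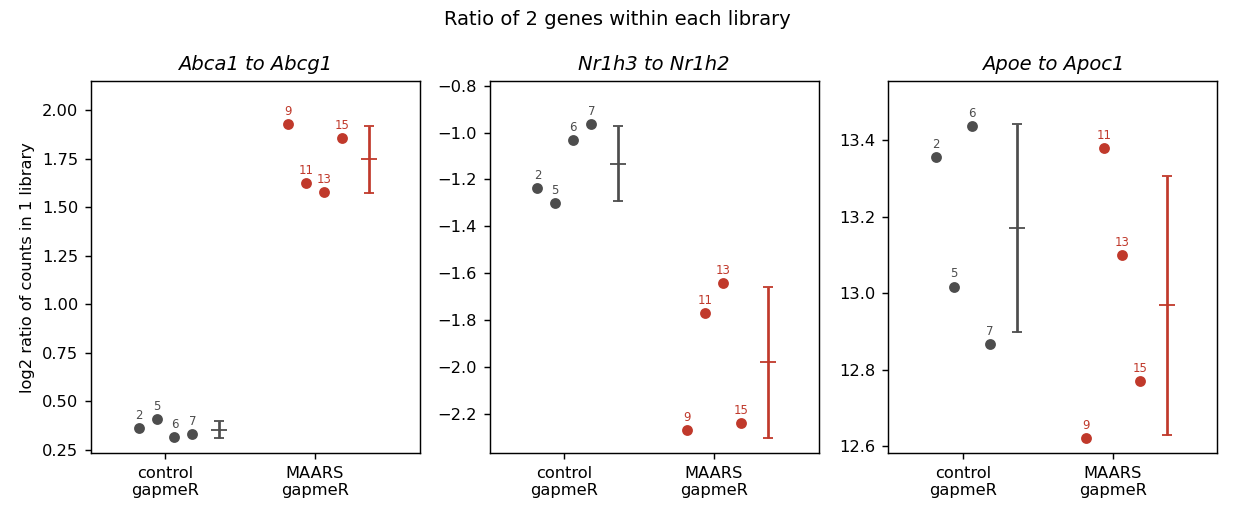
Log2 ratio of the counts of 2 genes within each library (y axis, its range set per panel and not starting at 0), with points for single libraries labelled by replicate number and bars for the mean with its SD. The Abca1 to Abcg1 ratio is higher and the Nr1h3 to Nr1h2 ratio lower in all 4 MAARS libraries, and the Apoe to Apoc1 ratios overlap.

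The apolipoproteins gave no call. Apoe encodes apolipoprotein E, which macrophages secrete and which accepts cholesterol and carries remnant particles to their receptors. Apoe (ENSMUSG00000002985, chr7:19696109-19699188, minus strand) was the 7th gene of those tested by level per exon length, with 5371, 6759, 7199 and 6603 CPM in the controls. The MAARS libraries had 7158, 6363, 6853 and 6970 CPM, within the control range. Its log2 fold change was 0.08 (SE 0.0851, 95% interval -0.11 to 0.26, adjusted p = 0.489), and 0.00098 without control library 2, in which Apoe was lowest.

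Apoc1 encodes apolipoprotein C-I, a small HDL and VLDL protein whose gene starts 3.448 kb from the end of Apoe on the same strand. The rank difference between these neighbours was large, since Apoc1 (ENSMUSG00000040564, chr7:19689481-19692660) had only 10, 16, 12 and 18 counts in the controls and 24, 15, 17 and 23 in the MAARS libraries. In CPM these were 0.512, 0.815, 0.649 and 0.884 against 1.14, 0.597, 0.781 and 0.997, with overlapping groups. The log2 fold change of 0.28 (SE 0.289, adjusted p = 0.454) had a 95% interval of -0.35 to 0.91, the widest of the 10 genes, so a change of the size seen for Abca1 lies within it. The Apoe to Apoc1 count ratio ranged from 7470 to 11093 in the controls and from 6305 to 10661 in the MAARS libraries, a log2 difference of -0.20 (two-sided exact permutation test, p = 0.4, adjusted 0.4).

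The other targets changed little. Lpcat3 encodes an enzyme that places polyunsaturated fatty acids in membrane phospholipids. Lpcat3 (ENSMUSG00000004270, chr6:124663027-124704418, plus strand) had 47.3, 52.3, 44.3 and 42.0 CPM in the controls and 58.7, 53.8, 50.04 and 56.6 CPM in the MAARS libraries. MAARS library 13 lay below control library 5, so the groups overlapped. Lpcat3 rose by 17.8%, a log2 fold change of 0.24 (SE 0.0734, 95% interval 0.08 to 0.40, adjusted p = 0.0214). The call was lost, with adjusted p of 0.0533 to 0.0629, when control library 6 or 7 or MAARS library 9 or 15 was left out. Of its exon length 10.2% is shared with Emg1 on the opposite strand, and no strand setting is stated for the counting.

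Pltp encodes the phospholipid transfer protein, which moves phospholipid between lipoproteins and enlarges HDL. Pltp (ENSMUSG00000017754, chr2:164839518-164857711, minus strand) measured 212, 280, 322 and 319 CPM in the controls and 369, 303, 369 and 332 CPM in the MAARS libraries. Library 11 of the MAARS group lay among the controls, and control library 2 was far below the other 3. The log2 fold change of 0.28 (SE 0.117, 95% interval 0.02 to 0.53) had an adjusted p of 0.0728 and did not pass. It passed with DESeq2 (0.28, adjusted p = 0.0455), with upper-quartile scaling (0.34, adjusted p = 0.0320), without the filter on low counts (0.27, adjusted p = 0.0115) and without control library 7 (0.34, adjusted p = 0.0482), while without control library 2 it was 0.17 (adjusted p = 0.110). Of the Pltp exons, 19.3% by length overlap Ctsa on the opposite strand.

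Mylip encodes IDOL, a ubiquitin ligase through which LXRs bring about the breakdown of lipoprotein receptors. Mylip (ENSMUSG00000038175, chr13:45389742-45412022, plus strand) had 103, 107, 118 and 111 CPM in the controls and 106, 93.0, 107 and 118 CPM in the MAARS libraries, with 1 MAARS library above the control mean. Its log2 fold change was -0.05 (SE 0.0701, 95% interval -0.21 to 0.10, adjusted p = 0.575), and its sign turned under upper-quartile scaling. The RNAs of Vldlr and Lrp8, receptors that IDOL acts on, did not pass the test either: the log2 fold changes were 0.07 for Vldlr and -0.04 for Lrp8, with adjusted p of 0.854 and 0.888, and both changed sign under some alternatives.

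**Figure D3:**
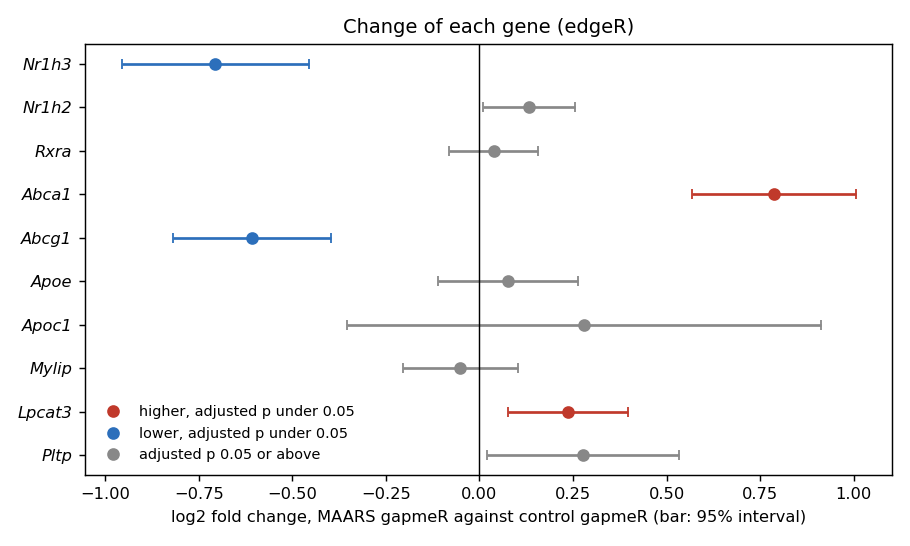
Log2 fold change of each gene, MAARS gapmeR against control gapmeR (x axis), with points for the edgeR estimate, bars for its 95% interval and colours for the call at an adjusted p under 0.05. Abca1 at 0.79 and Lpcat3 at 0.24 are called higher, Abcg1 at -0.61 and Nr1h3 at -0.71 lower, and the interval of Apoc1 is the widest.

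A few libraries lay at the edge of their group for many of the genes. Control library 2 was the lowest control for 8 of the 10 genes, all but Rxra and Lpcat3, and control library 6 was the highest for 7. In the MAARS group library 9 was the highest for 6 genes and library 11 the lowest for 6. With control library 2 left out, the log2 fold changes of the called genes were 0.72 for Abca1, -0.67 for Abcg1, -0.76 for Nr1h3 and 0.25 for Lpcat3, and each was still called, with adjusted p of 0.000115, 0.000107, 0.000388 and 0.0275.

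Levels between genes were compared per exon length, in TPM, the library's counts per base of exon scaled to a total of 1000000, from the summed exon length of each gene. In the controls Apoe stood at 9669 ± 1002 TPM (SD, n = 4), followed by Pltp at 353 ± 61.2, Abcg1 at 191 ± 19.7, Abca1 at 172 ± 15.6 and Mylip at 108 ± 6.10. Below these came Nr1h2 at 81.0 ± 2.11, Rxra at 80.9 ± 1.34, Nr1h3 at 49.5 ± 5.72, Lpcat3 at 45.4 ± 3.74 and Apoc1 at 3.07 ± 0.714. The library ranges overlapped for 3 neighbouring pairs of this order, Abcg1 with Abca1, Nr1h2 with Rxra, and Nr1h3 with Lpcat3. In the MAARS group Abca1 was at 315 ± 40.7 and Abcg1 at 133 ± 14.7 TPM, and Lpcat3 at 56.6 ± 3.88 was above Nr1h3 at 32.1 ± 5.20. These levels depend on the transcript length taken: with the longest annotated transcript in place of all exons, Abca1 was at 134 and Nr1h2 at 105 TPM in the controls.

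**Figure D4:**
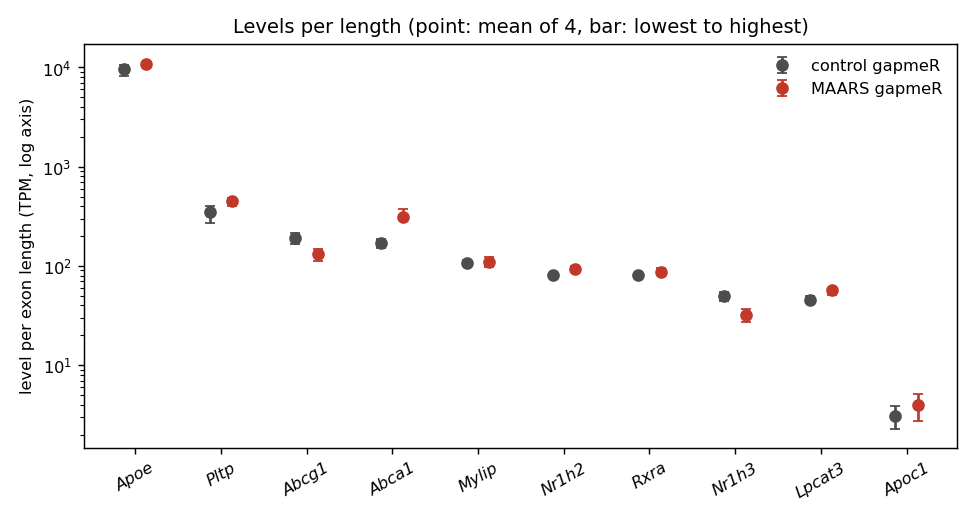
Level per exon length (TPM, log axis) of the 10 genes in order of the control mean, with points for the mean of 4 libraries and bars from the lowest to the highest library. Apoe lies far above and Apoc1 far below the rest, and the order of Abca1 and Abcg1 and of Nr1h3 and Lpcat3 differs between the groups.

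The other genes of the pathway were taken in 6 lists with 66 genes, of which 49 were tested. Of these 49, 16 were called higher and 11 lower, beside 21.3% higher and 24.0% lower among all genes tested, and their median log2 fold change was 0.07 against 0.01 over all genes. Of the receptors that can pair with RXR alpha or stand in its place, 6 of 11 were tested, and 4 rose and 0 fell, beside 21.3% and 24.0% of all genes. Rxrb, the gene of RXR beta, rose by 0.56 (log2; SE 0.0640, adjusted p = 4.3e-05), from 34.1 to 40.5 CPM in the controls to 50.6 to 58.4 in the MAARS libraries. Vdr, the vitamin D receptor gene, rose by 1.09 (adjusted p = 0.00392) at a low level of 0.764 to 1.35 against 1.66 to 2.77 CPM. Rarg, a retinoic acid receptor gene, rose by 0.47 (adjusted p = 0.00596), and Ppard, the gene of the fatty acid receptor PPAR delta, by 0.17 (adjusted p = 0.0246), a call that 5 of 8 fits without 1 library did not make. Rxrg, the third RXR gene, had 0 counts in all libraries.

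Corepressors and coactivators hold LXR target genes silent or switch them on, according to whether ligand is bound. All 14 on the list were tested, and 2 rose, 5 fell and 7 did not pass, a share called near the 45.4% of all genes, with a median log2 fold change of -0.08. Ncoa6, a coactivator that binds LXRs, fell by 0.29 (SE 0.0699, adjusted p = 0.00597). Of the NCoR corepressor complex, Tbl1x fell by 0.25 (adjusted p = 0.00456) and Gps2 by 0.21 (adjusted p = 0.00606), while Tbl1xr1 rose by 0.18 (adjusted p = 0.0251), a call that was lost in 4 of 8 fits without 1 library. Ncor1, a scaffold corepressor, did not pass at 0.11 (adjusted p = 0.112).

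Of 8 genes that make or remove LXR ligands, 3 were expressed enough to be tested. Cyp27a1, which makes 27-hydroxycholesterol, an LXR ligand, rose by 1.01 (SE 0.161, adjusted p = 0.000416). Its CPM ran from 19.4 to 30.4 in the controls and from 36.8 to 60.6 in the MAARS libraries, with no overlap. Hsd3b7, an enzyme of bile acid synthesis, did not pass at 0.10 (adjusted p = 0.768), with 17 to 39 counts per library. Of its exon length, 62.0% is shared with Gm49388 on the same strand and 62.4% with 9430064I24Rik on the opposite strand. Its value may therefore miss or include reads of these genes, which was not tested. Ch25h, which makes 25-hydroxycholesterol, was too low to test.

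Among 13 tested of 16 further LXR targets, 6 rose, 4 fell and 3 did not pass, beside 21.3% higher and 24.0% lower among all genes, with a median log2 fold change of 0.04. Smpdl3a, a phosphodiesterase gene, fell by 0.69 (SE 0.0597, adjusted p = 8.3e-06), from 798 to 842 CPM in the controls to 458 to 549 CPM. Arl4c, a small GTPase gene that acts in cholesterol efflux, rose by 0.49 (adjusted p = 0.000221). Scd1, a stearoyl-CoA desaturase gene, rose by 0.62 (adjusted p = 0.00604) at the low level of 2.87 to 3.33 against 4.02 to 5.47 CPM. Scd2, a desaturase gene at 168 to 236 against 187 to 218 CPM, did not pass at 0.04 (adjusted p = 0.763). Cd5l, a secreted macrophage protein gene, fell by 0.37 (adjusted p = 0.00439), with overlapping groups. The noncoding RNA gene AI427809, known as MeXis and described as a helper of Abca1 transcription, lies 101 kb from Abca1 on the same strand, and is named here after its values were seen. It stood at 1.69 to 2.90 CPM in the controls and 1.21 to 1.61 CPM in the MAARS libraries, a log2 fold change of -0.73 (SE 0.209, adjusted p = 0.0147), opposite in sign to that of Abca1.

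Genes that take up, move and store cholesterol were tested for 10 of 14, and 3 rose, 2 fell and 5 did not pass, a share called near the 45.4% of all genes. Stard3, the gene of a cholesterol-binding protein of late endosomes, fell by 0.92 (SE 0.0738, adjusted p = 6.3e-06). Npc2, which hands lysosomal cholesterol to the transporter NPC1, fell by 0.66 (SE 0.0615, adjusted p = 1.2e-05). Npc2 ran from 2624 to 2960 CPM in the controls and from 1662 to 1927 in the MAARS libraries, with no overlap. Abca7, a close relative of Abca1, rose by 0.59 (adjusted p = 0.000246), and Lrp1, an endocytic receptor for apolipoprotein E, by 0.29 (adjusted p = 0.00456). Soat1, which esterifies cholesterol for storage, was at 0.01 (SE 0.0458, adjusted p = 0.932).

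**Figure D5:**
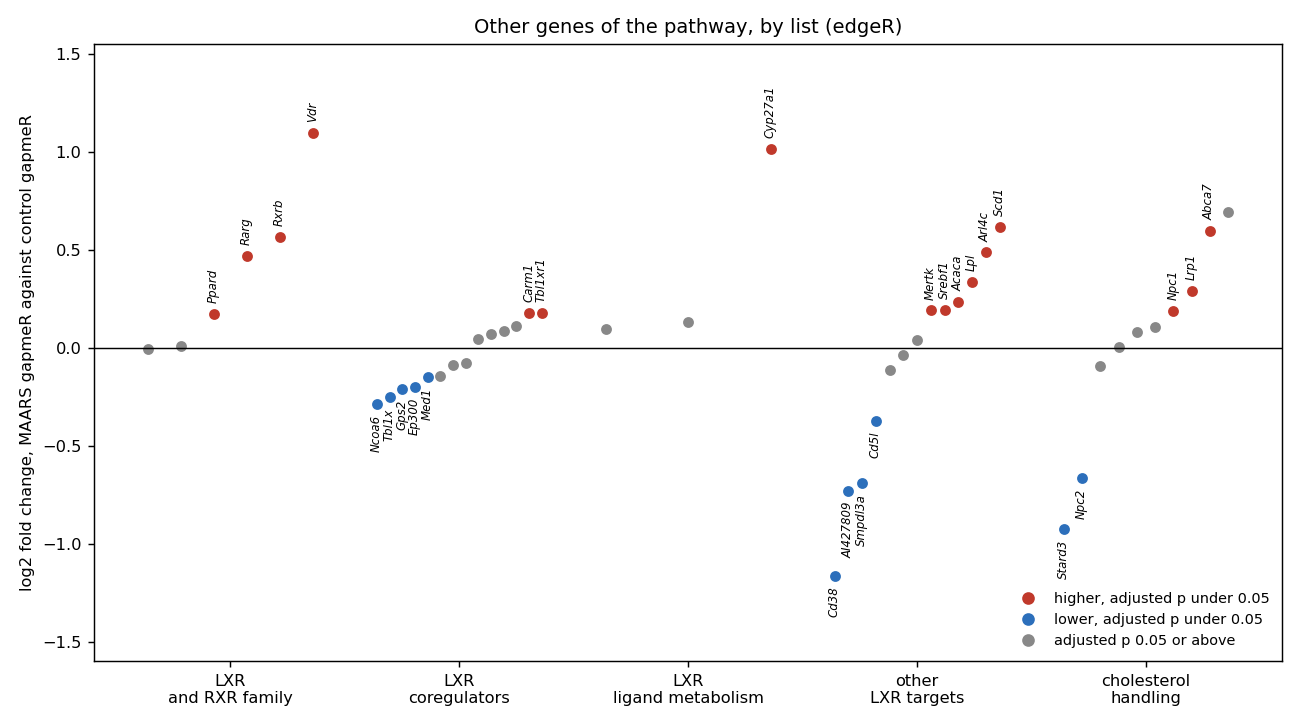
Log2 fold change (y axis) of the tested genes in 5 of the 6 lists around the LXR pathway, MAARS gapmeR against control gapmeR, each point 1 gene ordered by its value within a list and coloured by its call at an adjusted p under 0.05, with names for called genes. Called genes lie on both sides of 0 in 3 lists and above 0 only in the receptor and ligand lists (4 and 1 genes).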

How the data were processed

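RNA from mouse bone marrow-derived macrophages was depleted of ribosomal RNA and sequenced with paired ends. The authors deposited raw counts per Ensembl gene; the submitters' notes name Trimmomatic 0.36, STAR 2.5.2b, GRCm38 and featureCounts (Subread 1.5.2). The strand setting, the treatment of multiply mapped reads and whether reads or fragments were counted are not given in the sources used here. Symbols came from GENCODE M21 (99.47% of identifiers matched). Counts were tested with edgeR 4.0.16 (quasi-likelihood, TMM, filterByExpr with a minimum count of 10 and total of 15, R 4.3.3), all 8 libraries in 1 fit without covariates. Alternatives were DESeq2 1.42.0, limma-voom (limma 3.58.1), other scalings, a robust prior, no filter, each library left out, and thinned counts (added after the data were seen). Ratios were compared by exact permutation (scipy 1.17.1). The test was tried on simulated counts in which far fewer genes changed than were called here. That trial does not show how the test behaves when many genes change. Named were all 10 genes, MAARS, the 4 genes of smallest p in each list and IDOL substrates. Rxrg, Ncor1, Ch25h, Soat1, Scd2 and AI427809 were added after their values were seen. The genes and lists were chosen with earlier results of these data known. Some genes of the lists are not reported here.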

Additional observations from a re-analysis of the deposited data

Results flagged for a closer look

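Among 72 groups of 4 libraries, covering the 10 genes, MAARS, 22 genes of the lists and the 3 ratios, 1 held a library apart from the rest: Stard3 in MAARS library 13 was at 72.2 CPM against 63.1 to 63.9 CPM in the other 3, so that its gap was 0.91 of the range of the group, above Dixon's 95% limit. Chance alone marks about 1 in 20 groups in this way.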

How the results depend on the processing

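Abca1, Abcg1, Nr1h3 and MAARS kept their direction and call in all 15 alternatives, with log2 fold changes of 0.69 to 0.85, -0.67 to -0.54, -0.79 to -0.64 and -1.01 to -0.88. The number of the 10 genes called higher was 4 under upper-quartile scaling, where Nr1h2 and Pltp joined, and 1 to 3 with 1 library left out. Upper-quartile scaling moved the share of higher among all called genes from 47.0% to 60.4%, and the median of all genes by 0.06 (log2). Under it Mylip turned to 0.0115 and Lrp8 to 0.0270. With 1 library left out, Rxra ranged from -0.0074 to 0.0797, Mylip from -0.106 to 0.00636, Hsd3b7 from -0.0591 to 0.28, Vldlr from -0.12 to 0.33 and Lrp8 from -0.13 to 0.16, all with no call. The Abca1 to Abcg1 log2 ratio differed by 1.33 to 1.45 and the Nr1h3 to Nr1h2 ratio by -0.96 to -0.75 with 1 library left out, where the smallest p that 3 against 4 allows is 0.0571. With 3 mismatches allowed, 2 genes had a promoter match. The cause of these changes was not tested. No paired analysis was possible because the groups share no replicate numbers. Depth limits Apoc1, with 10 to 24 counts per library.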
